A study of Mus musculus with 3 samples.

Results

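Notum stromal cells are collagen-expressing cells of the YAP5SA stomach in which at least 2 of the genes Notum, Tac2, Apcdd1 and Tmem132c were detected. They were selected on these UMI counts in the YAP5SA library, among cells with at least 500 detected genes, at most 20% of unique molecular identifiers (UMIs, each a captured mRNA molecule) from mitochondrial genes, at least 0.5% of UMIs from Col1a1, Col1a2 and Col3a1, and at most 1 UMI of the epithelial genes Epcam and Cldn7. Of 3976 such YAP5SA cells, here called gated cells, 1188 were members, or 29.9% (95% interval 28.5 to 31.3). They were 13.2% of the 9029 YAP5SA cells that passed the gene and mitochondrial filters, out of 21602 such cells in the series. The detection of the 4 genes chose the members, so the levels of these genes describe the choice and were not tested.

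The series holds single-cell RNA sequencing of the embryonic mouse hindstomach, the glandular part of the stomach, at E18.5. The 3 libraries are labelled Shh-Cre;YAP5SA (here YAP5SA), Shh-Cre;YaploxP/loxP (here Yap knockout) and Shh-Cre (control), so the controls carry the Cre as well. Shh-Cre is a recombinase driven by the Shh gene, which the stomach epithelium expresses, and YAP5SA is a form of the coactivator YAP whose inhibitory phosphorylation sites are mutated. Each genotype has 1 library, the sources used here do not give the number of embryos, and genotype and library cannot be told apart. No comparison below therefore has a replicate check or a p-value, and every 95% interval covers counting error only.

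Wnt ligands bind Frizzled and LRP receptors, which stabilises beta-catenin and lets it act on genes through TCF and LEF factors. Many genes switched on in this way encode inhibitors of the pathway. Notum is a secreted carboxylesterase that removes the lipid from Wnt ligands, Apcdd1 a membrane protein that inhibits Wnt signalling at the receptors, and Axin2, Nkd1 and Nkd2 act on the pathway inside the cell. Tac2 encodes the precursor of the tachykinin neuropeptide neurokinin B, and Tmem132c a transmembrane protein. Stromal cells beneath the gut epithelium are both a source and a target of Wnt, BMP and Hedgehog signals.

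For a view of the sequence before these genes, RefSeq promoter windows (build GRCm38.p6, the 250 bases before the gene start) were searched on both strands for CTTTGA, the core of the motif that TCF and LEF factors bind (TCAAAG on the other strand). The motif was present in 4539 of 32817 windows, or 13.8%, and 2 or more times in 1.36%. At least 1 window held it for 4275 of 26994 genes, or 15.8%. Of 23 genes looked up, chosen for the Wnt pathway or for their levels, 14 had an entry, and Sp5, Tac2, Inhba and 1 of the 4 Lef1 windows had the motif. The windows of Axin2, Nkd1, Nkd2, Tmem132c, Igfbp3, Tcf7, Wif1, Rnf43, Nrxn3 and Thbs4 did not hold these letters. The windows of Sp5, the Wnt feedback gene with the highest CPM ratio within YAP5SA, and of Tac2, a gene of the rule, are shown 5′ to 3′ with the motif in capitals. The Sp5 window lies at chr2:70474673-70474922 and the Tac2 window at chr10:127724228-127724477, both on the plus strand. The motifs start at -204 and -104 in Sp5 and at -80 in Tac2, counted from the gene start. A match describes the sequence and is not a measured binding site.
Sp5: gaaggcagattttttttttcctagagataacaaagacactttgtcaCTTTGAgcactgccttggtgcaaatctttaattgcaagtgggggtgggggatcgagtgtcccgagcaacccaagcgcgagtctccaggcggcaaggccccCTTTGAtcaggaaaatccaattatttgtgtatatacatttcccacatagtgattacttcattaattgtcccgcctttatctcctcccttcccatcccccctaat
Tac2: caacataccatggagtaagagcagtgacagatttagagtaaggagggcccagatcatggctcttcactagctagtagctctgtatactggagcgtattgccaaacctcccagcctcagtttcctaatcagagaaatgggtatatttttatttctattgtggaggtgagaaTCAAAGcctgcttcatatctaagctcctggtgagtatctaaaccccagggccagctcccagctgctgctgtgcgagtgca

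The collagen gate held very different shares of the libraries. It took 44.0% of YAP5SA, 14.3% of Yap knockout and 91.7% of control cells. Cells of a macrophage gate (at least 0.2% of UMIs from C1qa, C1qb and C1qc) had a median of 0.302% collagen UMIs in YAP5SA and 0.638% in the control, where it lies above the 0.5% minimum. Values at a stricter minimum of 2% collagen UMIs, chosen after the data were seen, are given beside the results that they change most. The gated control cells are not read as stroma alone. The macrophage sum of 6 markers was 528 CPM (counts per 1000000 UMIs) in members, 699 in YAP5SA gated cells with 0 of the 4 genes and 914 in control gated cells with 0 of the 4. At 2% collagen these sums were 401, 502 and 161 CPM, so that members were then above the control. Sums in members, YAP5SA cells without the genes and control cells without them were 11801, 12623 and 50906 CPM for 5 erythroid markers, 63.5, 97.1 and 389 CPM for 5 neuron markers and 70.6, 82.9 and 237 CPM for 6 endothelial markers. At 2% collagen the erythroid sums were 4018, 5610 and 7427 CPM. The sum of 7 smooth muscle markers was 2683, 6459 and 7050 CPM in the same order of groups, and 1134, 977 and 1558 CPM at 2% collagen. The part of these other cell types and of free RNA in the results, and in every ratio over the control, was not tested. YAP5SA and control shared 2409 cell names, but these are running numbers and not barcode sequences.

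The members were read for 8 fibroblast markers, all of which were detected. The cells were gated on collagen genes and summed over 1188 cells, so detection could hardly fail and does not test the label. With each cell thinned to 2000 UMIs, Dcn was detected in 47.9% of members and 14.3% of YAP5SA macrophage-gate cells, and Pdgfra in 9.63% and 1.93%. The 8 markers summed to 3336 CPM in members, 4111 CPM in YAP5SA gated cells without the genes and 3636 CPM in control gated cells without them. Within YAP5SA, 1 of the 8 was higher in members than in cells without the genes (Lum), 1 was at least 2-fold lower (Dpt), and the median log2 ratio was -0.22, or -0.31 at 2% collagen. Pdgfra, the PDGF receptor that marks fibroblasts, was at 48.6 CPM in members, against 51.2 and 40.3 CPM. Collagen-binding Lum stood at 207 CPM in members, against 193 and 155 CPM, and Dcn, the decorin gene, at 549 CPM, against 799 and 743 CPM. At 2% collagen the marker sums were 4946 CPM in members, 6462 CPM in YAP5SA cells without the genes and 6759 CPM in control cells without them.

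Cells with several of the 4 genes were common in YAP5SA and rare in the other libraries. Among gated cells, 671 YAP5SA cells had 2 of the genes, 439 had 3 and 78 had all 4. In the Yap knockout 4 of 744 gated cells had 2 or more (0.538%, 0.147 to 1.37). In the control 27 of 6760 did (0.399%, 0.263 to 0.581), of which 26 had 2 and 1 had 3. Cells with more of the genes were deeper, with medians of 3490, 4910, 5865, 7648 and 10869.5 UMIs for 0, 1, 2, 3 and 4 genes in YAP5SA. After every cell was thinned to 2000 UMIs, leaving out 709 shallower YAP5SA, 135 Yap knockout and 1065 control cells, 13.0% (11.9 to 14.2) of 3267 YAP5SA cells, 0 of 609 Yap knockout cells and 0.0878% (0.0285 to 0.205) of 5695 control cells had 2 or more. A count of 0 in the Yap knockout allows a share of up to 0.604% by the exact 95% interval.

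**Figure D1:**
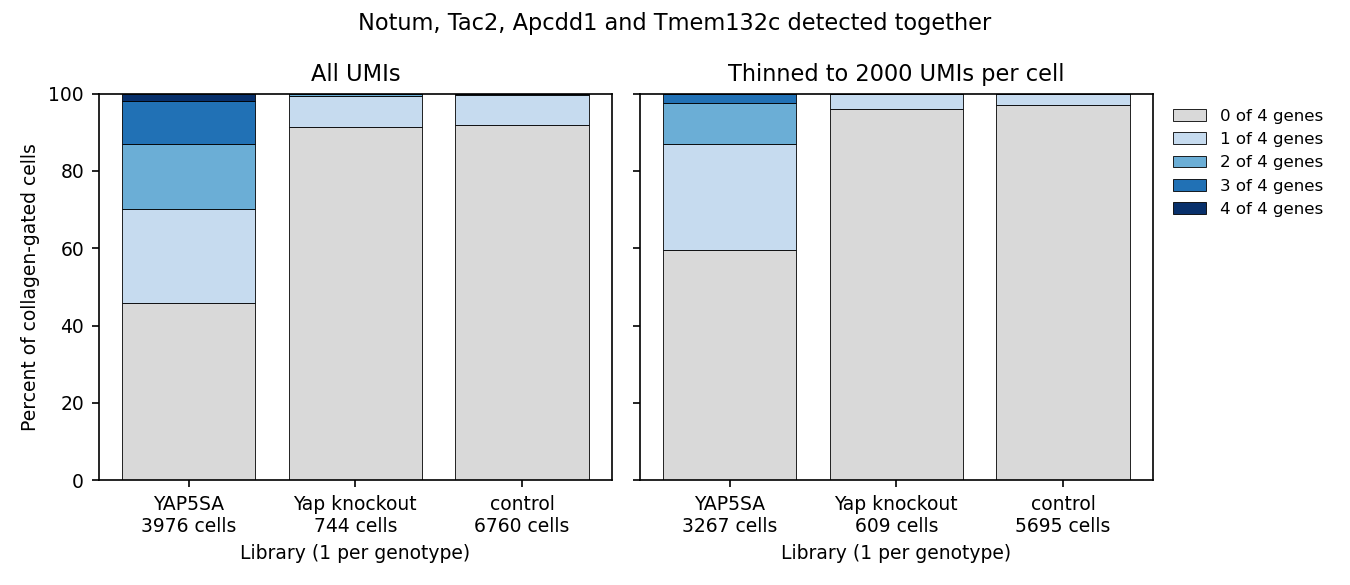
Percent of collagen-gated cells (y axis) in which 0 to 4 of Notum, Tac2, Apcdd1 and Tmem132c were detected, in the YAP5SA, Yap knockout and control libraries (x axis), with all UMIs (left) and after thinning to 2000 UMIs per cell (right). Cells with 2 or more of the genes were 29.9% of the YAP5SA bar and 0.399% of the control bar with all UMIs, and 13.0% and 0.0878% after thinning.

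The share was above that in other cells of the same library. After thinning, 5 of 879 YAP5SA macrophage-gate cells (0.569%, 0.185 to 1.32) and 8 of 1433 YAP5SA epithelial-gate cells (0.558%, 0.241 to 1.10) had 2 or more of the genes. Before thinning these shares were 5.05% and 11.4%, at median depths of 5591 and 9973 UMIs. The epithelial gate took cells with at least 3 UMIs of Epcam and Cldn7 and under 1% collagen.

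The members were not the cells richest in collagen. The share with 2 or more of the genes was 30.4% at 0.5 to 1% collagen UMIs, 38.8% at 1 to 2%, 25.6% at 2 to 3% and 7.25% above 3%. Median depths in these YAP5SA bands ran from 4163 to 5197 UMIs. Just inside the collagen minimum, at 0.5 to 0.6%, 61 of 384 cells had 2 or more (15.9%), and just outside it, at 0.4 to 0.5%, 40 of 576 (6.94%). In the control the same 4 wider bands held between 0.281% and 0.633%. At a 1% minimum the share was 29.6% in YAP5SA and 0.468% in the control, and at 2% it was 18.2% and 0.468%.

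Within the members, Tmem132c was detected in 77.1% of cells, Notum in 73.8%, Apcdd1 in 60.8% and Tac2 in 38.4%. The most frequent combination was Notum with Apcdd1 and Tmem132c, in 250 cells, followed by Notum with Tmem132c in 191 and Notum with Apcdd1 in 150. Tac2 with Apcdd1 alone was the least frequent, in 26 cells. Counts per cell were low for every gene, with a single UMI behind 44.5% of Notum detections and 53.3% of Tmem132c detections. Tac2 reached 36 UMIs in a single cell and Apcdd1 26, against 10 for Notum and 10 for Tmem132c.

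The genes of the rule also went together when each was left out of the choice. In YAP5SA gated cells with at least 2 of the other 3 genes, Notum was at 177 CPM, against 42.0 CPM in cells with 0 of the other 3, 4.21-fold (3.76 to 4.73) higher. Apcdd1 read in this way was at 142 against 32.1 CPM, 4.41-fold (3.87 to 5.03) higher. Tmem132c stood at 166 against 41.2 CPM, 4.03-fold (3.59 to 4.53) higher. Tac2 had the smallest ratio, at 136 against 51.1 CPM, 2.66-fold (2.38 to 2.97) higher. Depth differs between these groups as well, and these genes had been proposed together from the same cells, so the ratios are a description.

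Igfbp3, the fifth gene of the marker set and not used to choose the cells, encodes a secreted protein that binds insulin-like growth factors. It stood at 928 CPM in members, against 359 CPM in YAP5SA gated cells with 0 of the 4 genes and 94.4 CPM in control gated cells with 0 of the 4. The members were 2.59-fold (2.48 to 2.70) above the YAP5SA cells without the genes and 9.83-fold (9.46 to 10.2) above the control cells. Along the number of genes detected, from 0 to 4, Igfbp3 stood at 359, 617, 832, 1009 and 1083 CPM. After thinning to 2000 UMIs it was detected in 62.7% of members, 33.4% of YAP5SA cells without the genes and 10.8% of control cells without them, against 14.0% in the YAP5SA macrophage gate and 5.00% in that of the control. Igfbp3 was also higher in YAP5SA gated cells without the genes than in the control, 3.80-fold (3.62 to 3.99).

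Members and YAP5SA gated cells without the genes come from the same library and genotype. Of 3359 genes at 50 CPM or more in either group, 40 (1.19%) were at least 2-fold higher in members and 89 (2.65%) at least 2-fold lower, on the log2 scale of CPM plus 5. Against control gated cells without the genes, 115 of 3323 genes (3.46%) were higher and 138 (4.15%) lower. YAP5SA gated cells without the genes differed less from the control cells, with 28 of 3265 genes (0.858%) higher and 32 (0.98%) lower. The median log2 ratio over all genes was -0.02, 0.09 and 0.11 in the 3 comparisons.

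The 15 genes with the highest ratios within the YAP5SA library were Nrxn3, Aqp1, Thy1, Tbx3os1, Inhba, Thbs4, Col7a1, Col26a1, Masp1, Ildr2, Tbx2, Col9a2, Mmp2, Serpinf1 and Emid1. Nrxn3, a neurexin adhesion protein best known from synapses, stood at 184 CPM in members, 32.2 CPM in YAP5SA cells without the genes and 12.3 CPM in control cells without them. It was 5.71-fold (5.01 to 6.53) higher within YAP5SA. Thy1, a surface glycoprotein of fibroblasts and other cells, stood at 200.6, 40.7 and 11.8 CPM in these groups, a ratio of 4.93 (4.38 to 5.55) within YAP5SA and 17.0 (15.4 to 18.9) over the control. The water channel gene Aqp1 stood at 141, 24.9 and 43.0 CPM, so that the cells without the genes were lower in YAP5SA than in the control. Nrxn3 was detected after thinning in 20.3% of members, 5.98% of YAP5SA cells without the genes and 2.11% of control cells without them, against 3.64% in the YAP5SA macrophage gate.

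Matrix genes with high ratios included several minor collagens. Col7a1, the collagen of anchoring fibrils, stood at 86.1 CPM in members, 18.2 CPM in YAP5SA cells without the genes and 2.50 CPM in control cells without them, 4.73-fold (3.96 to 5.67) higher within YAP5SA and 34.4-fold (27.8 to 42.9) higher over the control. Thbs4, a thrombospondin of the matrix, stood at 122, 27.3 and 4.20 CPM, 4.49-fold (3.89 to 5.21) higher within YAP5SA and 29.2-fold (24.7 to 34.6) over the control. The fibril-associated collagen gene Col9a2 stood at 245, 79.4 and 47.4 CPM, and Col26a1 at 112, 25.8 and 12.5 CPM. Col26a1 was the exception at 2% collagen, where it stood at 20.4 CPM in members, 14.4 CPM in YAP5SA cells without the genes and 10.9 CPM in control cells without them. Col9a2 at 2% collagen stood at 409, 91.8 and 41.6 CPM.

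Among proteases and their partners, Mmp2, a gelatinase, stood at 669 CPM in members, 227 CPM in YAP5SA cells without the genes and 160.2 CPM in control cells without them. It was 2.95-fold (2.80 to 3.11) higher within YAP5SA. Timp1, an inhibitor of such enzymes, stood at 184, 85.7 and 34.4 CPM, and 2.14-fold (1.96 to 2.34) higher within YAP5SA. Masp1, a serine protease of the complement lectin pathway, stood at 65.3, 14.4 and 1.02 CPM, and C4b, a complement component, at 53.8, 24.0 and 1.07 CPM. Serpinf1, a secreted serpin, stood at 297, 99.04 and 82.2 CPM. Of the 15 protease genes listed 7 reached 50 CPM, and of these Mmp2 and Timp1 were the 2 past 2-fold higher within YAP5SA and 0 were lower, against 1.19% and 2.65% of all genes. At 2% collagen 8 reached that level, with 1 higher and 1 lower, against 1.38% and 2.73% of all genes. Timp1 was under 2-fold there, at 1.82 (1.55 to 2.14), and also with 1% collagen, without cells high in markers of another class, with the mean of per-cell CPM and with a pseudocount of 20 CPM.

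Tbx2, a T-box transcription factor, stood at 112 CPM in members, 31.1 CPM in YAP5SA cells without the genes and 9.68 CPM in control cells without them, 3.62-fold (3.15 to 4.17) higher within YAP5SA. Its relative Tbx3, below 50 CPM in each group, stood at 46.7, 13.4 and 14.97 CPM, and the RNA named Tbx3os1, from the opposite strand at Tbx3, at 92.2, 17.6 and 25.7 CPM. The 2 RNAs are neighbours, the counting is not stated to use strand, and reads from them cannot be told apart here. Inhba, the activin subunit gene, stood at 73.6, 13.8 and 9.26 CPM, 5.33-fold (4.36 to 6.56) higher within YAP5SA. Ildr2, an immunoglobulin-like membrane protein, stood at 71.5, 17.2 and 4.57 CPM, and the matrix gene Emid1 at 143, 46.7 and 32.0 CPM.

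**Figure D2:**
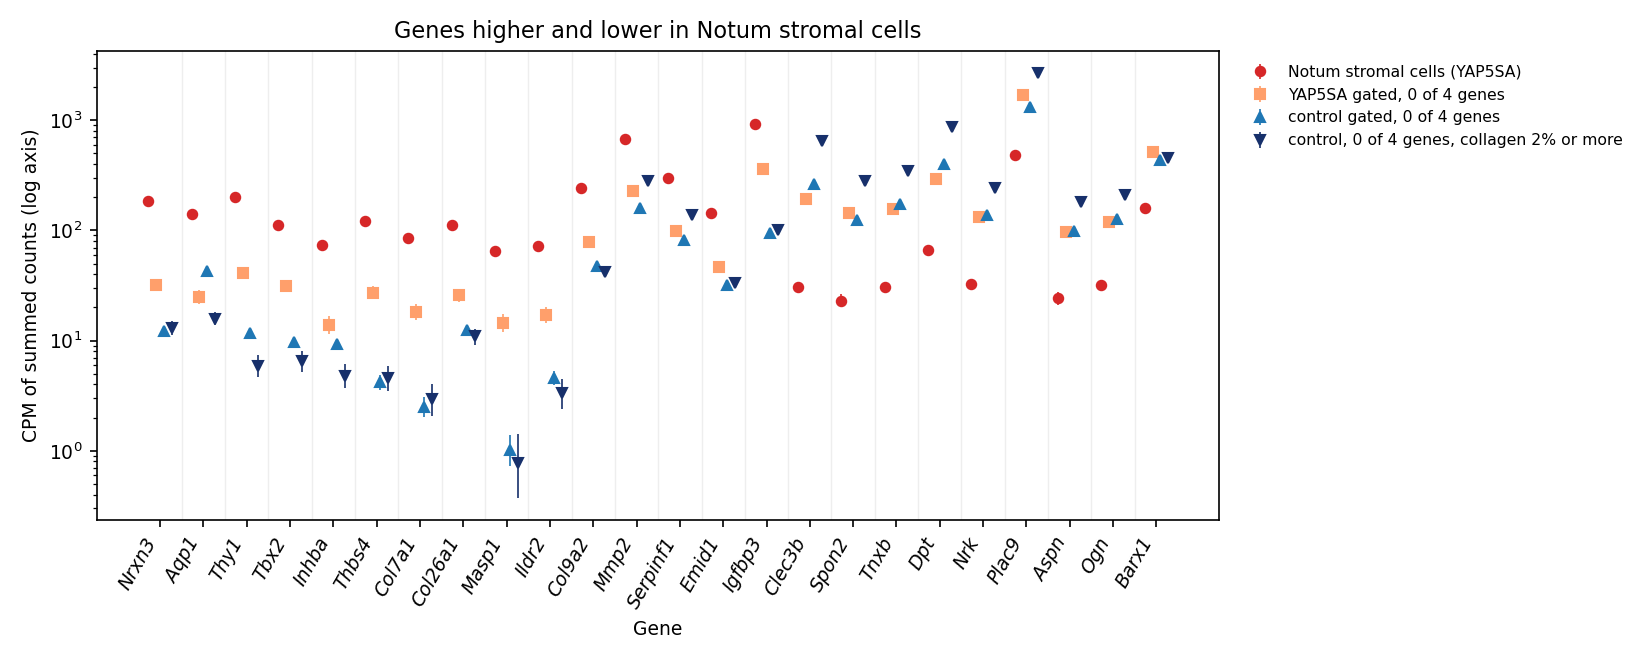
CPM of summed counts on a log axis (y axis) for named genes (x axis) in Notum stromal cells, in YAP5SA and control gated cells with 0 of the 4 genes, and in control cells without the genes at 2% collagen or more. Bars are exact 95% Poisson intervals of the counts. From Nrxn3 to Igfbp3 the Notum stromal cells lie above the other groups, and from Clec3b to Barx1 below them.

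Clec3b, which encodes tetranectin, stood at 30.5 CPM in members, 193 CPM in YAP5SA cells without the genes and 264 CPM in control cells without them, 6.33-fold (5.57 to 7.21) lower within YAP5SA and 8.66-fold (7.69 to 9.79) lower over the control. Spon2, a secreted matrix protein listed for mucosal fibroblasts, stood at 23.1, 143 and 126 CPM, 6.17-fold (5.32 to 7.17) lower within YAP5SA. Dpt, which encodes the matrix protein dermatopontin, stood at 66.2, 296 and 401 CPM, 4.47-fold (4.09 to 4.90) lower. The tenascin gene Tnxb stood at 30.5, 155 and 174 CPM, and Nrk at 32.7, 131 and 139 CPM. Plac9 stood at 483, 1713 and 1326 CPM, and the small leucine-rich matrix genes Aspn and Ogn at 24.2 and 31.9 CPM in members, against 95.9 and 118 CPM in YAP5SA cells without the genes. At 2% collagen Clec3b stood at 82.7, 408 and 645 CPM and Dpt at 93.4, 509 and 866 CPM.

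Clec3b, Spon2, Dpt, Tnxb, Nrk and Plac9 differed by less than 2-fold between the 2 groups without the rule's genes. Clec3b and Dpt were lower in YAP5SA than in the control, and further apart at 2% collagen. Spon2 was 1.14-fold (1.06 to 1.21) higher in YAP5SA than in control cells without the genes, Tnxb 1.12-fold (1.05 to 1.19) lower, and Dpt 1.35-fold (1.30 to 1.41) lower. Clec3b was detected after thinning in 3.98% of members, 19.8% of YAP5SA cells without the genes and 28.1% of control cells without them, against 1.82% in the YAP5SA macrophage gate and 5.00% in that of the control. Camp and S100a9, genes of neutrophils, also had low ratios within YAP5SA, with Camp at 19.8 CPM in members and 111 CPM in cells without the genes. The sum of 4 neutrophil markers was 166 CPM in members, 541 CPM in YAP5SA cells without the genes and 132 CPM in control cells without them. At 2% collagen this sum was 158, 202 and 31.8 CPM. Camp there stood at 24.0, 21.7 and 4.10 CPM, and its direction within YAP5SA turned.

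The lowest ratios over the control were those of stomach secretory genes, Pga5, Tff1, Bpifb1, Muc5b and Clps. Pga5, which encodes a pepsinogen of the gastric glands, stood at 17.8 CPM in members, 49.2 CPM in YAP5SA cells without the genes and 963 CPM in control cells without them. Tff1, a trefoil peptide of the surface mucous cells, stood at 9.55, 23.8 and 484 CPM. They are genes of the epithelium, and 9 epithelial markers summed to 939 CPM in members, 1251 CPM in YAP5SA cells without the genes and 516 CPM in control cells without them. The part of free RNA in these ratios was not tested.

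Wnt feedback genes were read from a list of 27. Sp5, a zinc-finger factor known as a direct Wnt target, stood at 15.1 CPM in members, 1.83 CPM in YAP5SA cells without the genes and 0.365 CPM in control cells without them, from 139, 15 and 14 UMIs. It was 8.23-fold (4.82 to 15.1) higher within YAP5SA. Wif1, a secreted Wnt inhibitor, stood at 16.2, 2.69 and 0.626 CPM, 6.01-fold (3.83 to 9.88) higher. Nkd2 stood at 63.7, 21.2 and 9.16 CPM, 3.01-fold (2.54 to 3.59) higher within YAP5SA and 6.96-fold (6.09 to 7.97) over the control. Axin2, a scaffold of the beta-catenin destruction complex, stood at 28.5, 10.4 and 5.84 CPM, 2.75-fold (2.14 to 3.55) higher. Lef1, a transcription factor partner of beta-catenin, stood at 27.4, 10.0 and 2.24 CPM, 2.73-fold (2.12 to 3.54) higher.

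Other members of the list differed less or ran the other way. Kremen1, a DKK receptor, stood at 63.7 CPM in members, 30.6 CPM in YAP5SA cells without the genes and 22.02 CPM in control cells without them. Nkd1 stood at 91.7, 64.2 and 62.2 CPM, 1.43-fold (1.28 to 1.60) higher within YAP5SA. Znrf3, a ligase that removes Frizzled receptors, was at 29.6, 24.2 and 19.2 CPM. Its relative Rnf43 and the R-spondin receptor gene Lgr5 were near the floor of the data, at 3.69 and 2.17 CPM in members, from 34 and 20 UMIs, and their ratios within YAP5SA had intervals that include 1. Shisa3, which encodes a Wnt and FGF receptor inhibitor, was lower, at 9.23 CPM in members against 40.1 and 35.5 CPM, 4.35-fold (3.41 to 5.58) lower within YAP5SA. Dkk2 stood at 74.6, 45.2 and 34.7 CPM.

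As a group, 10 of the 27 reached 50 CPM in members or YAP5SA cells without the genes, and of these Nkd2 was at least 2-fold higher and 0 were lower, against 1.19% and 2.65% of all genes. At 2% collagen 0 of 11 were higher and 1 was lower, against 1.38% and 2.73% of all genes, with Nkd2 at 46.7 CPM in members and so below the level. Without a minimum level, Sp5, Wif1, Nkd2, Axin2 and Lef1 were at least 2-fold higher and Shisa3 lower, so 5 and 1 of 27, against 0.446% and 1.07% of 17497 genes with any UMI. Only 3359 genes reached 50 CPM, and the added 5 CPM makes 2-fold harder to pass at low levels, which lowers these shares. With a pseudocount of 20 CPM, Sp5, Wif1, Axin2 and Lef1 fell under 2-fold within YAP5SA, and with 1% collagen Axin2 and Lef1 did. The median log2 ratio of the 10 genes at 50 CPM was 0.16, with 5 of 10 above 0, against -0.02 for all genes at that level, and that of all 27 was 0.28. Over control cells without the genes, 7 of 27 were higher and 1 lower, against 1.19% and 2.4% of 18441 genes with any UMI, and the medians were 0.56 for the 10 genes at 50 CPM, against 0.09 for all genes at that level, and 0.48 for all 27. These medians over the control changed at 2% collagen. They were then 0.13 for 12 genes at 50 CPM, with 7 of the 12 above 0, and 0.61 for all 27. The median of all genes at that level was -0.01 there. With a pseudocount of 20 CPM, Axin2, Dkk2, Kremen1, Sp5 and Wif1 fell under 2-fold over the control. At 2% collagen within YAP5SA, Sp5 stood at 6.59 and 1.38 CPM, from 11 and 4 UMIs, and the log2 ratios of CPM plus 5 were 0.86 for Sp5, 0.76 for Axin2 and 0.84 for Lef1, below 2-fold, with 1.52 for Nkd2 and 1.62 for Wif1.

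After thinning to 2000 UMIs, Nkd2 was detected in 12.5% (10.7 to 14.6) of members, 3.86% (2.89 to 5.05) of YAP5SA cells without the genes and 1.43% (1.13 to 1.80) of control cells without them, against 1.82% (1.04 to 2.94) in the YAP5SA macrophage gate. Axin2 was detected in 7.51% of members, 2.20% of YAP5SA cells without the genes and 1.10% of control cells without them, against 0.683% in that gate. Wif1 was detected in 4.24%, 0.303% and 0.0581% of the same 3 groups, against 0.114% in the gate. For Nkd2, Axin2 and Wif1 the share in members was above that in macrophage-gate cells beyond counting error, as it was for Lef1, Sp5 and Nkd1. For 2 others the intervals overlapped. Znrf3 was detected in 5.74% (4.46 to 7.26) of members against 4.32% (3.08 to 5.89) in the gate. Tcf7 was detected in 2.56% (1.72 to 3.66) against 1.37% (0.707 to 2.37). Nkd1 was detected in 15.3% of members and 16.0% of YAP5SA gated cells with 1 of the 4 genes.

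**Figure D3:**
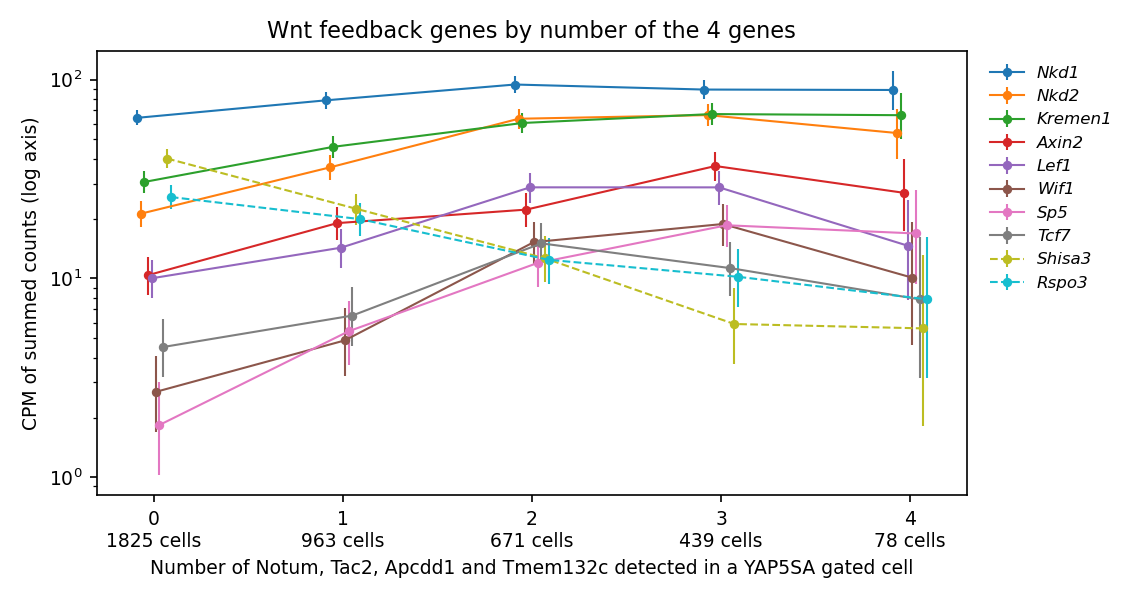
CPM of summed counts on a log axis (y axis) for Wnt feedback genes and Rspo3 in YAP5SA gated cells with 0, 1, 2, 3 or 4 of the rule's genes (x axis), with exact 95% Poisson intervals. Sp5 stood at 1.83, 5.42, 12.0, 18.5 and 16.8 CPM, while Shisa3 and Rspo3 (dashed) ran the other way, Rspo3 from 25.7 CPM at 0 genes to 7.86 CPM at 4.

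Cells just outside the rule, with 1 of the 4 genes, lay between the members and the cells with 0. Nkd2 stood at 21.2, 36.2, 63.5, 66.3 and 53.9 CPM with 0 to 4 genes, and Axin2 at 10.4, 19.0, 22.2, 36.8 and 26.9 CPM. Nrxn3 stood at 32.2, 80.5, 168, 233 and 57.2 CPM, so that the 78 cells with all 4 genes, all of which have Tac2, were far below those with 3. Clec3b ran the other way, at 193, 127, 42.7, 19.9 and 12.3 CPM. The plot of Wnt genes by number of genes shows the same grading for most of the feedback genes up to 3 genes.

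R-spondins are secreted proteins that strengthen Wnt signals. Of these Rspo3 stood at 11.1 CPM in members, 25.7 CPM in YAP5SA cells without the genes and 27.5 CPM in control cells without them, 2.32-fold (1.82 to 2.97) lower within YAP5SA. Rspo1 stood at 4.56, 13.1 and 21.5 CPM, 2.87-fold (1.99 to 4.20) lower. Wnt5a, a ligand of stromal cells, stood at 58.2, 43.6 and 35.5 CPM. The receptor gene Fzd1 stood at 94.2, 50.5 and 30.9 CPM, 1.87-fold (1.66 to 2.10) higher within YAP5SA. On the log2 scale of CPM plus 5, none of the 19 ligand and R-spondin genes (3 of them at 50 CPM) was past 2-fold within YAP5SA. Rspo3 and Rspo1 stayed under 2-fold on this scale because 5 CPM is added to their low levels. None of the 16 receptor genes (6 at 50 CPM) was past 2-fold either. The shares over 17497 genes with any UMI were 0.446% higher and 1.07% lower. The medians of all 19 and all 16 genes were -0.10 and -0.10. Among genes at 50 CPM the medians were 0.45 for the 3 ligand and R-spondin genes, all above 0, and 0.08 for the 6 receptor genes, 3 above 0. For all genes at that level the median was -0.02.

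Of the 19 Wnt ligand and R-spondin genes, 3 reached 50 CPM in epithelial-gate cells of YAP5SA or the control, with 2 of them at least 2-fold higher in YAP5SA and 0 lower, against 10.5% and 6.49% of all genes, and the median of all 19 was 0. There Wnt4 was at 309 CPM in YAP5SA against 79.7 CPM in the control, 3.87-fold (3.36 to 4.47) higher. Wnt7b stood at 98.7 against 1.57 CPM there, from 1918 and 4 UMIs. Wnt7a stood at 28.9 CPM against 0 UMIs, at least 24.5-fold higher with a floor of 3 counts over the group. In members Wnt4 was at 66.0 CPM and Wnt7b at 10.7 CPM, against 38.0 and 14.5 CPM in the YAP5SA macrophage gate, so Wnt7b in members lay below that gate. The part of free RNA in these values was not tested. Wnt4 in members was 3.99-fold (3.56 to 4.47) above control gated cells without the genes, at 16.5 CPM. The YAP5SA macrophage gate, at 38.0 CPM, also lay above those control cells. Over YAP5SA gated cells without the genes, Wnt4 in members was not past 2-fold on the scale of CPM plus 5.

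Among the other signalling lists, single genes stood out. Barx1, the homeobox factor of stomach mesenchyme, stood at 161 CPM in members, 511 CPM in YAP5SA cells without the genes and 432 CPM in control cells without them, 3.17-fold (2.99 to 3.37) lower within YAP5SA. Bmp7, a BMP ligand, stood at 26.9, 6.60 and 4.77 CPM, 4.08-fold (3.03 to 5.58) higher within YAP5SA. Bmp4 stood at 107, 102 and 109 CPM, a ratio of 1.05 (0.955 to 1.15), but at 2% collagen at 94.6, 182 and 221 CPM, 1.92-fold (1.61 to 2.31) lower. The Hedgehog targets Ptch1 and Gli1 stood at 33 and 30.5 CPM in members, against 36.1 and 35.5 CPM in YAP5SA cells without the genes. Hedgehog genes had a list median of -0.15 and BMP genes of -0.07 within YAP5SA.

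Genes of the insulin-like growth factor axis differed in both directions. Igf2 stood at 2717 CPM in members, 1680.3 CPM in YAP5SA cells without the genes and 1108 CPM in control cells without them, 1.62-fold (1.58 to 1.65) higher within YAP5SA. Igf1 stood at 130.3, 289.8 and 267 CPM, 2.22-fold (2.07 to 2.39) lower. The binding protein gene Igfbp5 stood at 159, 301 and 411 CPM, 1.89-fold (1.77 to 2.02) lower. Of the 10 genes, all at 50 CPM or more, Igfbp3 was past 2-fold higher and Igf1 lower within YAP5SA, against 1.19% and 2.65% of all genes. At 2% collagen 1 was higher and 3 lower, against 1.38% and 2.73%, and the list median was 0.36 there and 0.0079 at 0.5% collagen. Over control cells without the genes, 2 were higher and 3 lower, against 3.46% and 4.15%.

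Matrix genes other than the named collagens mostly differed by less than 2-fold. Of 29, Bgn, the biglycan gene, was past 2-fold higher within YAP5SA, at 1899 CPM in members against 877 CPM in YAP5SA and 478 CPM in control cells without the genes, and Col14a1 and Thbs2 were lower, against 1.19% and 2.65% of all genes. At 2% collagen 0 were higher and 2 lower, against 1.38% and 2.73%. Col14a1, a fibril-associated collagen, stood at 65.9, 217 and 226 CPM. Bgn at 2% collagen was 1.82-fold (1.73 to 1.92) higher within YAP5SA. The list median was -0.23.

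Targets of YAP and TEAD had a median log2 ratio of -0.02 within YAP5SA. Of these 20 genes, 12 of them at 50 CPM, 0 passed 2-fold in either direction. Over all 17497 genes with any UMI the shares were 0.446% higher and 1.07% lower. At these shares a count of 0 does not set a list of this size apart. Ccn2 stood at 31.6 CPM in members, 53.7 CPM in YAP5SA cells without the genes and 44.6 CPM in control cells without them. Cell division genes had a median of 0.30, with Mki67 at 50.8, 44.7 and 55.7 CPM, and 0 of 16 past 2-fold in either direction, against the same shares. That median was 0.08 at 2% collagen and ran from -0.09 to 0.32 over the settings run, so its sign was not stable. The 14 genes of glycolysis and hypoxia gave a median of -0.04, and FGF, PDGF and TGF beta genes of 0.03. Of the 18 FGF, PDGF and TGF beta genes Inhba alone was past 2-fold, against the same shares. Pdgfrb, the PDGF receptor of mural cells and fibroblasts, stood at 133, 81.3 and 39.5 CPM. The 12 immediate early and heat shock genes, known to respond to tissue handling, had a median of 0.39 within YAP5SA, the highest of the 15 lists, with 9 of the 11 at 50 CPM above 0, and of 0.46 over the control. At 2% collagen these medians were 0.35 and 0.03. The part of handling in the members' results was not tested. Of this list Hspa1a, a heat shock gene, stood at 329, 130.2 and 157 CPM. At 2% collagen it stood at 204, 122 and 196 CPM. Chemokine and inflammation genes had a median of -0.14, and 8 tachykinin and neuropeptide genes one of -0.17. In each, 0 were past 2-fold at 50 CPM, against 1.19% higher and 2.65% lower of all genes. Without a minimum level, 2 of the 19 chemokine and inflammation genes were lower, against 1.07% of genes with any UMI.

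**Figure D4:**
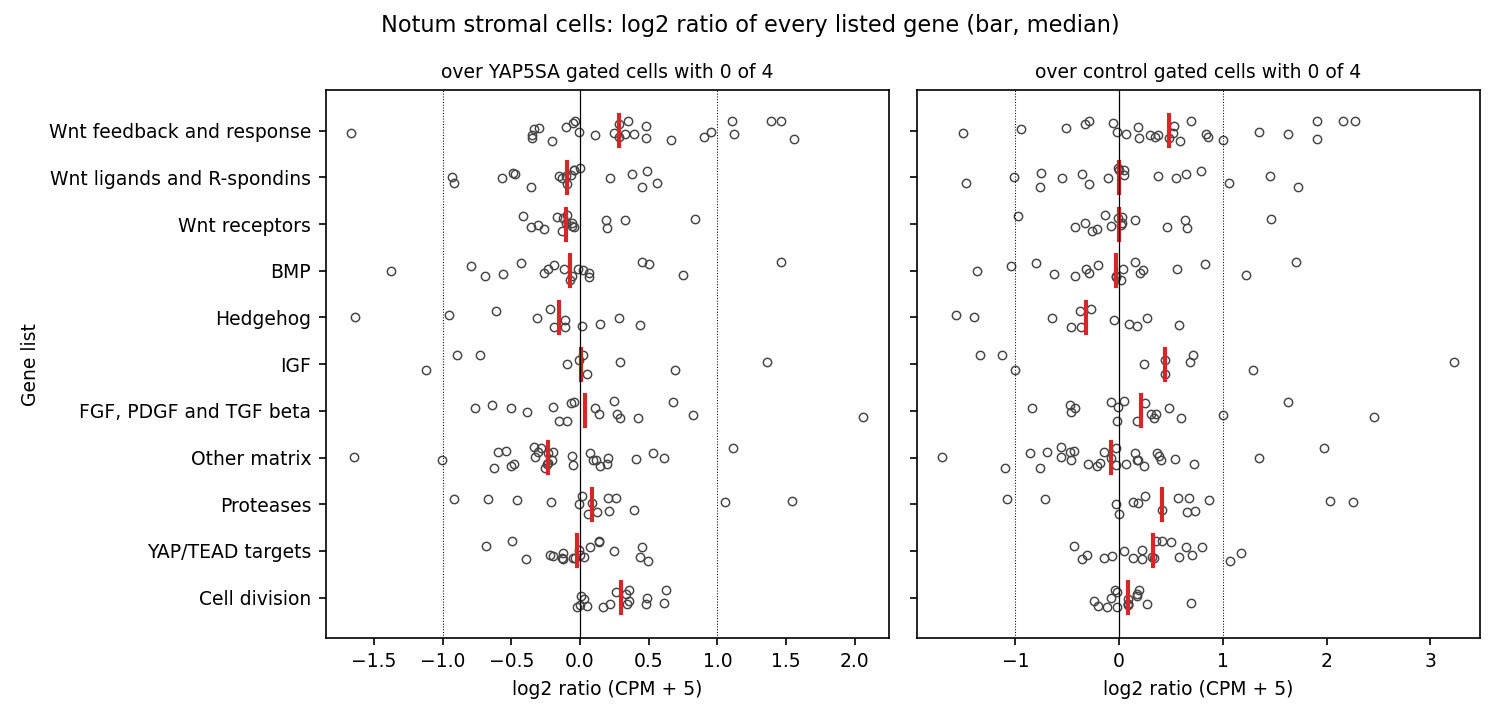
Log2 ratio of CPM plus 5 (x axis) for every gene of 11 lists (y axis), with Notum stromal cells over YAP5SA gated cells with 0 of the 4 genes (left) and over control gated cells with 0 of the 4 (right). Red bars are list medians and dotted lines mark 2-fold. The Wnt feedback list has its median at 0.28 (left) and 0.48 (right), with Sp5, Wif1, Nkd2, Axin2 and Lef1 right of the 2-fold line in both panels.

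Members with Tac2 and members with Apcdd1 differed from each other in other genes. This split was chosen after the data were seen. Of the members, 275 had Tac2 and no Apcdd1, and 541 had Apcdd1 and no Tac2, with median depths of 7355 and 6015 UMIs and median collagen of 1.47% and 1.02%. Of 3283 genes at 50 CPM, 10 (0.305%) were at least 2-fold higher in the cells with Tac2 and 50 (1.52%) at least 2-fold lower.

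The 10 higher genes were H2-Ab1, H2-Eb1, C4b, Lbp, Serpina3n, Cd74, H2-Aa, Gas6, Ifitm10 and Cpz. H2-Ab1, a class II MHC chain, stood at 140.2 CPM with Tac2 and 45.9 CPM with Apcdd1, 3.05-fold (2.53 to 3.69) higher. Cd74, the class II invariant chain, stood at 284 against 107 CPM, 2.65-fold (2.34 to 3.01) higher. C4b stood at 79.1 against 25.7 CPM, and Lbp, which encodes the lipopolysaccharide binding protein, at 65.2 against 20.7 CPM. Macrophages and other antigen-presenting cells express class II genes, and Cd74 was at 1005 CPM in the YAP5SA macrophage gate. The sum of 6 macrophage markers was 511 CPM with Tac2 and 478 CPM with Apcdd1. The part of such cells in the class II values was not tested. In cells with 0 UMIs of C1qa, C1qb and C1qc, 52 with Tac2 and 107 with Apcdd1, H2-Ab1 stood at 177 against 13.9 CPM, from 46 and 7 UMIs. The ratios of H2-Ab1, H2-Eb1, H2-Aa and Cd74 were 12.8, 5.44, 6.56 and 6.23 there. Over all cells of the split they were lower, at 3.05, 3.05, 2.65 and 2.65. The ratios of C4b, 1.68 (0.737 to 3.79), and Tbx3, 0.507 (0.169 to 1.28), had intervals that include 1. Lbp, Nrxn3, Robo2, Bmp4 and Col7a1 kept their direction, with intervals that exclude 1. This choice does not leave out antigen-presenting cells without C1q. Over all members the class II genes did not stand apart within YAP5SA, with H2-Ab1 at 74.6 CPM in members and 69.1 CPM in cells without the genes, but at 2% collagen it stood at 120.4 and 26.8 CPM, beside macrophage sums of 401 and 502 CPM.

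Of the genes lower in the cells with Tac2, Nrxn3 had the lowest ratio. Nrxn3 stood at 48.1 CPM with Tac2 and 318 CPM with Apcdd1, 6.61-fold (5.42 to 8.13) lower. Robo2, a receptor for Slit guidance proteins, stood at 15.3 against 78.7 CPM, 5.15-fold (3.61 to 7.58) lower. Bmp4 stood at 43.1 against 160 CPM, 3.70-fold (2.98 to 4.64) lower, and Tbx3 at 20.7 against 72.7 CPM. Aldh1a2, which makes retinoic acid, stood at 11.7 against 54.6 CPM. Of the 27 Wnt feedback genes, Wif1 stood at 6.74 against 24.4 CPM and Lef1 at 11.7 against 38.6 CPM, both below 50 CPM. Among the 10 of the list at 50 CPM, 0 were at least 2-fold higher with Tac2 and 1 lower, against 0.305% and 1.52% of all genes. Their median log2 ratio was -0.27, against -0.11 for all genes at that level. Thbs4, at 132 and 130.4 CPM, and Thy1, at 168 and 225 CPM, differed by less than 2-fold.

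Both directions were the same within a collagen band. At 1 to 2% collagen, with 151 cells with Tac2 and 225 with Apcdd1, H2-Ab1 stood at 143 against 58.3 CPM, Nrxn3 at 43.3 against 264 CPM and Bmp4 at 36.5 against 138 CPM. Over all cells of the split, 8 genes listed for mucosal fibroblasts summed to 165 CPM with Tac2 and 315 CPM with Apcdd1. Bmp4 is 1 of these 8 and made up most of that difference, at 43.1 against 160 CPM. The sum of 8 fibroblast markers ran the other way, at 3693 against 3053 CPM, as did that of Agtr2, Penk and Dlk1, at 3985 against 2832 CPM. Smooth muscle markers summed to 2496 and 2851 CPM.

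**Figure D5:**
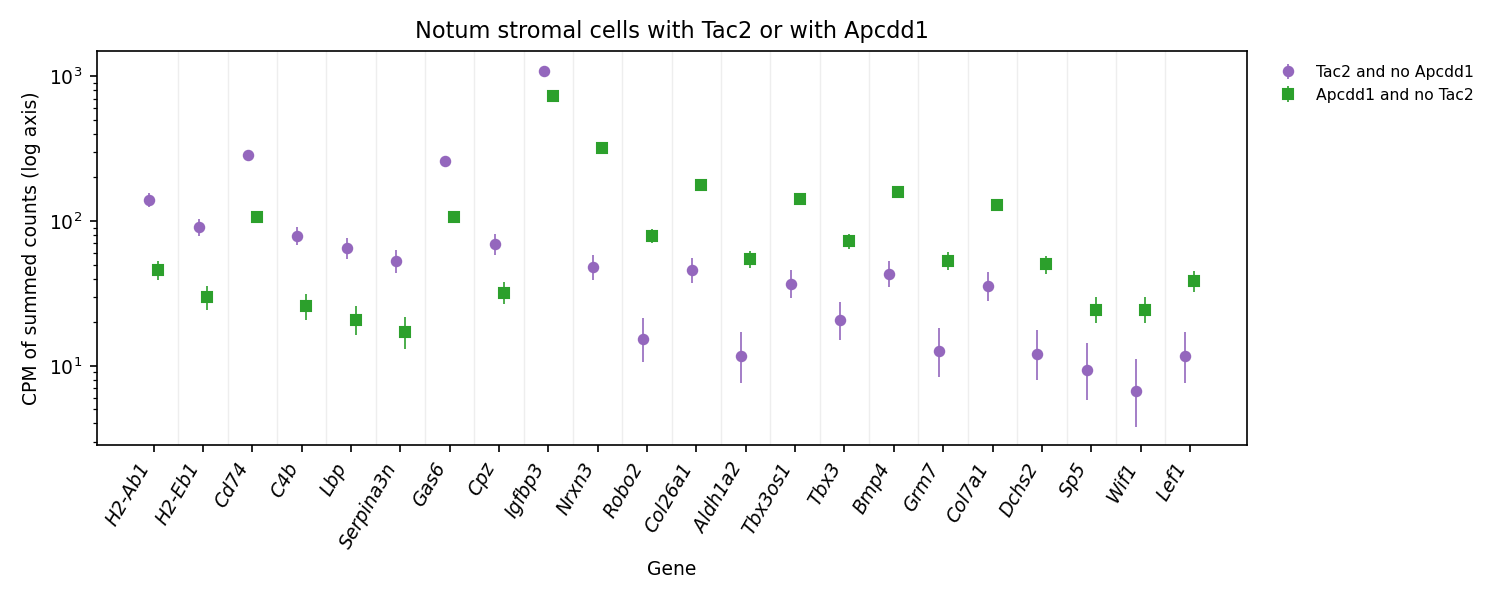
CPM of summed counts on a log axis (y axis) for genes (x axis) in Notum stromal cells with Tac2 and no Apcdd1 (circles, 275 cells) and with Apcdd1 and no Tac2 (squares, 541 cells), with exact 95% Poisson intervals. The genes from H2-Ab1 to Igfbp3 stand higher with Tac2, and those from Nrxn3 to Lef1 higher with Apcdd1.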

How the data were processed

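Per the file headers, the authors deposited raw UMI counts made with PISA 1.0, per gene and cell, for 3 libraries (1 per genotype). The submitters' processing notes name STAR and the build GRCm39. Each deposited cell has at least 1000 UMIs. A correction for free RNA, a doublet filter and strand-aware counting are not stated in those sources. YAP5SA has 9439 cells and 65843658 UMIs, the Yap knockout 5739 and 40857358, and the control 7692 and 48910624.

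For each group of cells, UMIs were added up and scaled to CPM. Ratios have an exact 95% interval conditional on the summed Poisson counts, and shares an exact Clopper-Pearson 95% interval. Both cover counting error only. A gene counts as higher or lower from 2-fold on the scale of log2(CPM + 5), at 50 CPM or more in either group unless stated. Cells were not clustered, and no doublet caller was run. The main values have no doublet filter beyond the limit on Epcam and Cldn7 UMIs. Filters on markers of another class and on depth were run only as alternative settings.

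Members and gene lists were chosen with earlier results of these data known. By rule the text names the 15 highest and 10 lowest genes within YAP5SA, the 10 highest and 5 lowest over the control, up to 3 genes per list and direction, and 20 genes whatever their level. Mitochondrial, ribosomal, haemoglobin, sex-linked and predicted genes and those of the membership rule were left out. Genes of the Tac2 and Apcdd1 groups, the other genes named and the 2% collagen values were chosen after the data were seen. The calculations were tested on simulated data. Versions were Python 3.11.15 with matplotlib 3.10.9, pandas 2.3.3, scipy 1.17.1 and numpy 2.4.6.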

Additional observations from a re-analysis of the deposited data

Results flagged for a closer look

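Cells outside the collagen gate also held the genes of the rule. Of 5053 YAP5SA cells that passed the gene and mitochondrial filters but not the gate, 406 had 2 or more of Notum, Tac2, Apcdd1 and Tmem132c, or 8.03% (7.30 to 8.82), against 1 of 612 such control cells (0.163%). They were drawn to attention because they lie in data that the comparisons do not use and stand above the control. Their median depth was 13735 UMIs and their median collagen 0.401%. In them Notum stood at 63.8 CPM and Igfbp3 at 258 CPM, and the epithelial gene Krt8 at 1829 CPM and the macrophage gene C1qa at 373 CPM. The part of free RNA, depth and doublets in these cells was not tested.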

How the results depend on the processing

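No paired analysis was possible because each genotype has 1 library. The YAP5SA share of 29.9% stood at 29.6% with 1% collagen, 30.02% with 10% mitochondrial UMIs and 29.4% without the deepest 6% of cells. It moved to 13.0% with at least 3 of the 4 genes, 13.0% after thinning, 18.2% with 2% collagen and 33.5% without cells high in markers of another class, the last 2 settings chosen after the data were seen. The control share moved to 0.0148% with at least 3 of the genes and 0.0878% after thinning. Leaving out cells with 2 different markers of another class left 0 members, 1 YAP5SA and 3 control cells, and gave no value. Within YAP5SA, the 40 higher and 89 lower genes became 63 and 156 with a level minimum of 20 CPM, and 23 and 47 with 100 CPM. Over the control, 115 and 138 became 173 and 295, and 58 and 67. With a pseudocount of 20 CPM, 56 genes were lower within YAP5SA. More or fewer genes are tested under these minimums. Camp turned within YAP5SA, to a log2 ratio of 0.12 with 2% collagen and 0.069 with cells of 4000 to 10000 UMIs. Each of the other named genes among the 41 past 2-fold within YAP5SA, and all 55 over the control, had the same sign under the alternatives run, and between 30 and 41, and between 43 and 55, stayed past 2-fold. The Wnt feedback median ran from 0.17 to 0.44 within YAP5SA and from 0.26 to 0.61 over the control. Depth limits Sp5, Wif1, Rnf43 and Lgr5, which rest on few UMIs.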
